A study of Homo sapiens with 40 samples.

Results

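The comparison covers the 10 arrays of replicate 2 that received only 0.1% DMSO, the drug's solvent, out of 40 arrays in the whole series. Members were chosen by label: 7 arrays of clones resistant to the antiandrogen MDV3100 and 3 arrays of control lines. The resistant lines are Clone 1, 9, 10, 14, 15, 19 and 24. The control lines are labelled sensitive to MDV3100 and titled D+E- (control 1), D+R- (control 2) and M+R- (control 3), titles that the labels do not explain. All of these lines are LNCaP, a human prostate cancer line of luminal type that depends on androgen, grown in RPMI-1640 with fetal calf serum, and all 10 cultures had 24 h of DMSO. The comparison therefore shows how the lines differed without MDV3100 during those 24 h. Each label has 1 array here, and the labels do not say how the clones were derived or whether arrays stem from separate cultures. The p-values therefore reflect the spread among these 10 arrays, which may be technical. They also take each array as independent, although some clones were alike, as given below.

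Prostate luminal cells take up androgen and answer with a programme of secreted and membrane proteins, of which the kallikreins are the best known. MDV3100, also called enzalutamide, blocks that signal, and lines that grow in its presence can differ from their parents in the androgen programme itself, in lineage factors or in stress and growth pathways.

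Values are linear array signals, scaled by the authors so that every array has the same trimmed mean, and signals of different genes are not compared with each other. Differences are clones minus control lines on the log2(signal + 16) scale, which understates the change of dim genes. A gene is called where limma's adjusted p is under 0.05 over all 11853 genes tested.

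The arrays carried the markers of luminal prostate cells. Of the 8 luminal markers, 7 had a named probe set and all 7 passed the filter on low values, and their summed signal lay between 10339 and 12440 in clones and between 9714 and 11241 in control lines. Basal markers summed to at most 31.3 in clones and 30.4 in control lines, neuroendocrine markers to at most 21.8 and 38.1, and immune markers to at most 5.1 and 6.6. KRT5, CHGA, CD3E and CD14 were among those near 0. Endothelial markers summed to at most 29.2 in clones and 62.1 in control lines, and fibroblast markers, mostly through COL1A1, to at most 183 and 147.

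Array quality differed between the groups in 1 of 4 measures. The GAPDH 3' to 5' signal ratio, a sign of RNA integrity and amplification length, lay between 1.17 and 1.25 in clones and between 1.29 and 1.36 in control lines, without overlap. A 2-sided exact permutation test over 120 splits gave p = 0.00833, the smallest that 7 against 3 allows, or 0.0333 adjusted over the 4 measures. The same ratio for actin was 2.69 to 3.48 in clones and 3.30 to 3.70 in control lines (exact p = 0.133), and the median signal and 75th percentile had exact p = 0.208 and 0.425. The part of the GAPDH ratio in the differences below was not tested.

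Some arrays stood apart from the others of their label. With each gene centred on its mean over the 10 arrays, clones 14, 15, 19 and 24 correlated with each other across genes at r = 0.65 to 0.83, and clones 9 and 10 with each other at 0.59. Clone 1 correlated with the control lines at 0.39 to 0.43 and with every other clone below 0, at -0.60 to -0.21. Controls 2 and 3 correlated at 0.70, and control 1 with them at 0.35 and 0.36. Genes are not independent replicates, so these r are descriptions, and centring over 10 arrays pushes unlike arrays below 0.

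**Figure D1:**
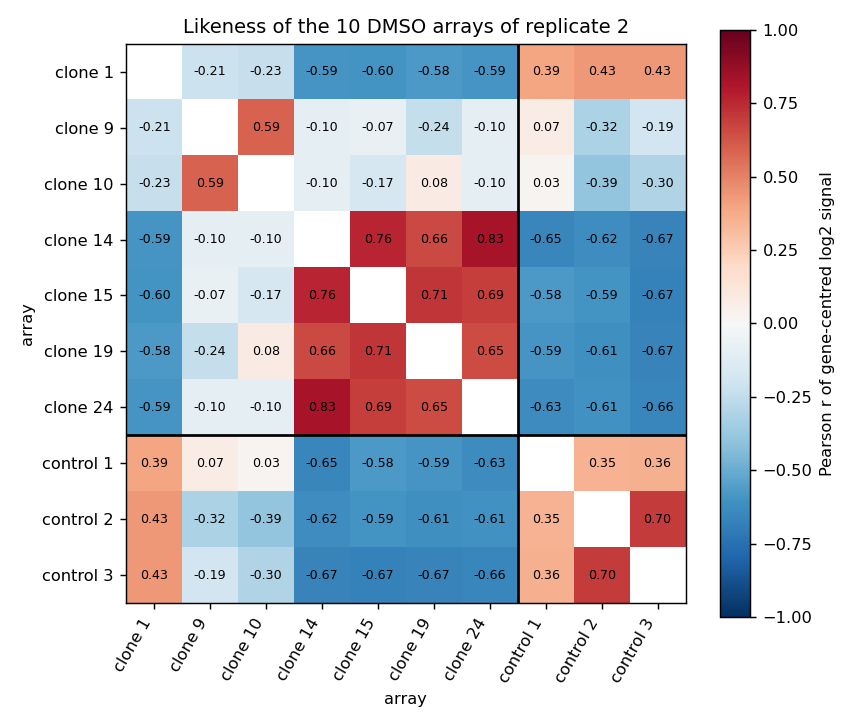
Pearson r across 11853 genes between the 10 DMSO arrays of replicate 2, each gene centred on its mean over these arrays; rows and columns list the 7 clones and then the 3 control lines. Clones 14 to 24 form a block at 0.65 to 0.83, and clone 1 correlates above 0 with the control lines alone.

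Set beside the DMSO arrays of replicate 1, several labels did not match. With genes centred over those 20 arrays, control 2 was most like the replicate 1 array of clone 1 (r = 0.63, against -0.17 with its own label), control 3 most like clone 14 (0.54, own label -0.22) and clone 1 most like clone 19 (0.66, own label 0.04). Control 1 was most like control 3 (0.35, own label 0.31). Clones 9 to 24 correlated at -0.65 to -0.30 with their own label, but below 0 with every replicate 1 array. Their best matches, all control labels, were at -0.21 to -0.08. For these clones the values therefore single out no other label. Groups follow the labels throughout, so that "clone" and "control line" stand for the array with that label.

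In DMSO, 465 genes were higher and 756 lower in clones than in control lines, which is 3.92% and 6.38% of the genes tested. All 7 clones lay above all 3 control lines for 574 genes (4.84%) and below them for 981 (8.28%). Of the 1221 called genes, 866 were without overlap, 325 of them higher and 541 lower. The median difference over all genes was -0.05. In cultures measured whole, fewer cells with a transcript and less of it per cell cannot be told apart.

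The size of the call list depended on single arrays. Without clone 1 there were 1571 genes higher (13.3%) and 2306 lower (19.5%), and all 1221 genes kept their call and sign. Without control 2, only 2 genes were called, and without control 3 only 8, with 2891 and 2552 genes at an unadjusted p under 0.05. In both of these fits all 1221 genes kept their sign. Refits that leave out arrays reuse the rest of those that gave the calls, so kept signs are weak support. Leaving out control 2 and clone 1 together gave 885 higher and 1320 lower, and 1067 of the 1221 kept their call and sign. Over the called genes, the median shift from the control mean in the called direction was 0.30 for clone 1, 0.61 and 0.67 for clones 9 and 10, and 0.79 to 0.84 for clones 14, 15, 19 and 24. Clone 1 was nearer to the control mean than to the mean of the other clones for 726 of the called genes. Both the shifts and this count use genes called from these same arrays, so they are partly built in by that choice.

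**Figure D2:**
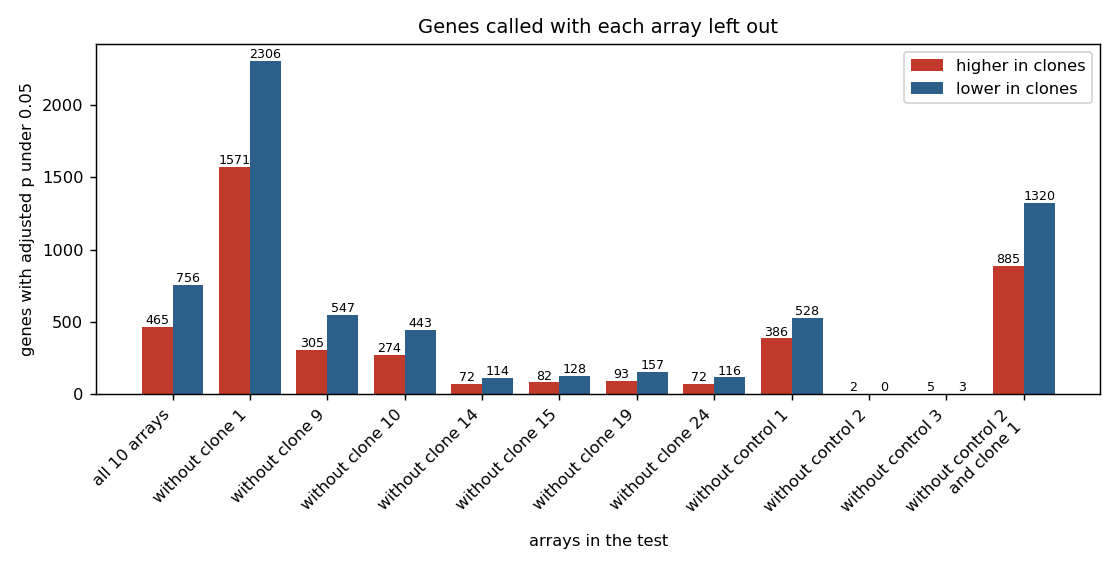
Genes with adjusted p under 0.05 (limma), higher (left bar) and lower (right bar) in clones, with all 10 arrays and with each array left out. The counts reach 1571 and 2306 without clone 1 and fall to 2 and 0 without control 2.

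CWH43 and GPNMB were higher in clones and kept their call in every fit of this comparison in DMSO arrays of replicate 2. Those without control 2 or control 3 are included. GPNMB encodes a membrane glycoprotein of melanosomes and lysosomes. Its signal was 1209, 1398 and 1761 in the lowest, median and highest clone, against 507, 373 and 541 in controls 1, 2 and 3. Every clone, clone 1 at 1479.8 included, was above every control line, and the difference was 1.59 ± 0.15 (SE; adjusted p = 0.00285). Over the alternatives its adjusted p lay between 0.000201 and 0.032.

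CWH43 encodes a membrane protein whose yeast counterpart remodels the lipid of GPI anchors, the tails that hold many surface proteins. Its signal was 70.8, 158 and 211 in the lowest, median and highest clone, against 10.9, 0.4 and 9.9 in controls 1, 2 and 3. The control values lay below the filter level of 12.1, and the difference was 2.82 ± 0.28 (SE; adjusted p = 0.00285, and 4.24e-05 to 0.0391 over the alternatives). Clone 1 was the lowest clone.

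The stretch before the GPNMB start site is shown because transcription of this gene in pigment cells is known to depend on a short E-box element, the M-box, for the MITF family of factors. From the RefSeq promoter table (GRCh38.p14), chr7:23246667-23246764 on the plus strand, with TCACATGA in capitals:
GPNMB: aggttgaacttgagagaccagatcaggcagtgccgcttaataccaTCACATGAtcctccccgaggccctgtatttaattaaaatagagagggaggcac
The match begins at -63 from the start site. Searched on both strands, these letters occur in 1.0% of the 35116 promoter windows of that table. A match in letters is a description and shows no binding.

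The leading genes higher in clones, all without overlap, included TMEM45B, a small membrane protein, and TMSB4X, thymosin beta 4, which binds actin monomers. TMEM45B had 565, 757 and 808 in the lowest, median and highest clone, against 291, 20.1 and 51.3 in controls 1, 2 and 3, a difference of 3.01 ± 0.47 (SE; adjusted p = 0.0114). TMSB4X had 1358, 2089 and 2772 in clones, against 574, 42.5 and 753 in control lines, 2.78 ± 0.61 (SE; adjusted p = 0.028). Control 2 was the lowest array for each gene, and without it TMSB4X differed by 1.60. TUSC1, a tumour suppressor candidate, had 532, 995 and 1279.5 in clones, against 500.4, 62.6 and 80.5 in control lines, so control 1 was close to the lowest clone. The non-coding RNA gene LOC105371703 had 165, 215 and 248 in clones, against 94.2, 1.0 and 4.4 in control lines.

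Other leading genes were as low in control 1 as in controls 2 and 3. CLU encodes clusterin, a secreted chaperone. Its signal was 262, 786 and 1137 in clones, with clone 1 the lowest, against 144, 158 and 128 in control lines, and the difference was 2.14 ± 0.34 (SE; adjusted p = 0.0114). HGD, the homogentisate dioxygenase of tyrosine breakdown, had 340.2, 588 and 795 in clones, against 175, 168 and 201 in control lines, 1.53 ± 0.26 (SE; adjusted p = 0.0137). GAS5, a non-coding host gene of small nucleolar RNAs, had 68.5, 289 and 318 in clones, against 52.2, 50.6 and 59.0 in control lines. NFKBIZ, a nuclear regulator of NF-kappa-B targets, had 51.7, 181 and 266 in clones, against 44.5, 34.0 and 33.6 in control lines. Its difference was 1.79, and 0.46 by its other probe set. For GAS5 and NFKBIZ the lowest clone was clone 1, just above the control lines, while the other 6 clones formed a separate high group.

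The remaining leading genes higher in clones were RAB12, a GTPase of membrane traffic (1.86), PTPN20, a tyrosine phosphatase gene with near-identical copies (1.76), the non-coding RNA CCDST (1.75), S100P, a calcium-binding protein (1.58), and the non-coding RNA LCAL1 (1.55). Their adjusted p lay between 0.0128 for CCDST and 0.0448 for RAB12. The other probe set of RAB12 differed by -0.17, so its rise rests on a single probe set.

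Among called genes without overlap, SLC4A4 and FAM110B had the most negative differences. SLC4A4 encodes a sodium bicarbonate cotransporter. Its signal was 32.2, 59.3 and 271 in the lowest, median and highest clone, against 475, 1668 and 1677 in controls 1, 2 and 3, a difference of -3.44 ± 0.61 (SE; adjusted p = 0.016). The other probe sets of SLC4A4 differed by -3.145 to -0.492. FAM110B, a centrosomal protein gene, had 0.3, 5.6 and 20.3 in clones, against 52.8, 591 and 325 in control lines, -3.33 ± 0.52 (SE; adjusted p = 0.0114). Control 1 was the control line nearest to the clones for both genes. Their order was not fixed, since with log2(signal + 4) FAM110B had -4.34 and SLC4A4 -3.66.

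Lipid enzymes and a cytokine receptor were also lower. CEL encodes carboxyl ester lipase, has a near-identical pseudogene, and had 15.9, 20.2 and 76.8 in clones, against 108, 272 and 258 in control lines (-2.36 ± 0.34, SE; adjusted p = 0.0114). SCD5, a stearoyl-CoA desaturase, had 31.4, 41.6 and 109 in clones, against 219, 261 and 289 in control lines (-2.07 ± 0.26, SE; adjusted p = 0.0114). OSMR, the receptor subunit for oncostatin M, had 10.1, 21.9 and 32.5 in clones, against 69.7, 241 and 246 in control lines (-2.25 ± 0.33, SE; adjusted p = 0.0114). In SCD5 all 3 control lines were alike, while in CEL and OSMR control 1 lay between the clones and the other control lines. ACOX2, a peroxisomal acyl-CoA oxidase, had at most 11.4 in any clone, against 12.2, 138 and 93.1 in control lines.

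The Wnt pathway factor TCF7L2 was lower in clones, with 139, 191 and 448 in the lowest, median and highest clone, against 481, 639 and 851 in control lines (-1.57 ± 0.30, SE; adjusted p = 0.0197). SRGAP1, which acts on small GTPases downstream of Slit and Robo, had 29.5, 34.0 and 77.8 in clones, against 91.1, 182 and 189 in control lines (-1.61 ± 0.25, SE; adjusted p = 0.0114). The highest clone was clone 1 for TCF7L2 and SRGAP1. Others among the leading genes lower in clones were HENMT1, which methylates small RNAs of the germ line (-2.04), GXYLT2, a xylosyltransferase (-1.99), SMOC2, a matrix protein (-1.83), and APOBEC3F, an antiviral cytidine deaminase with close paralogs (-1.80). BEND7 (-1.64), EPN3, an endocytic adaptor (-1.56), and ZDHHC15, a palmitoyltransferase (-1.56), completed them. Other probe sets of some of these genes differed less: -0.09 for EPN3, -0.37 for APOBEC3F, -0.84 for GXYLT2 and -0.94 to -0.46 for SRGAP1. The fall of EPN3 thus rests on a single probe set. Clone 1 was the highest clone for HENMT1, GXYLT2, APOBEC3F and EPN3, at 94.5, 54.7, 59.4 and 669.7, each close to the lowest control line.

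**Figure D3:**
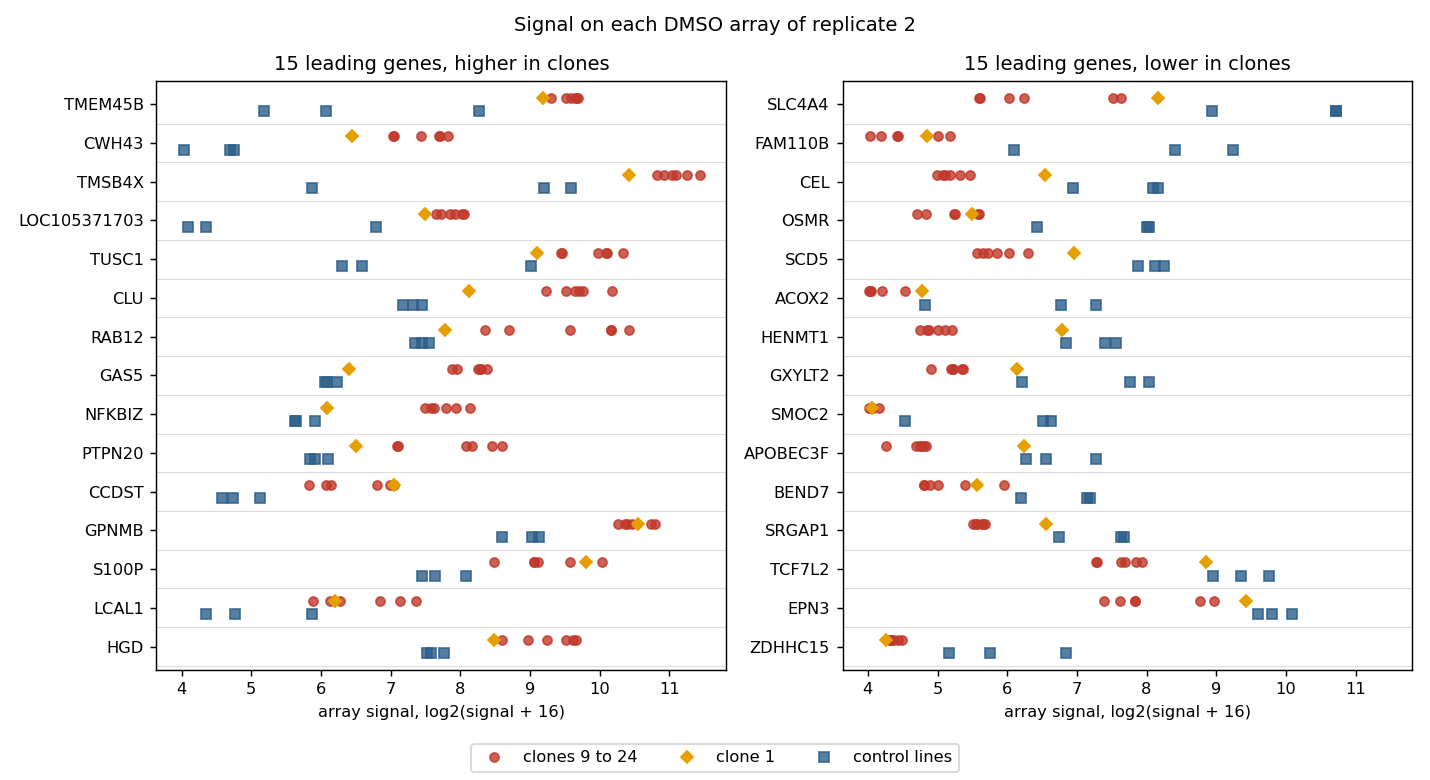
Signal on each DMSO array of replicate 2, as log2(signal + 16), for the 15 leading genes higher in clones (left) and the 15 lower (right); circles are clones 9 to 24, diamonds clone 1, squares the control lines. Groups do not overlap for these genes, by the rule that chose them, and clone 1 is the clone nearest to the control lines for most of the genes that are lower.

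Gene lists were read by how many members were called and by their median, beside 3.92% higher, 6.38% lower and a median of -0.05 over all genes. Counts at an unadjusted p under 0.05 stand beside 13.9% higher and 20.9% lower over all genes. Counts without clone 1 stand beside 13.3% higher and 19.5% lower, with the median over all genes again at -0.05. Counts of signs stand beside 5263 positive and 6590 negative differences over all 11853 genes. Lists and members were chosen with earlier results of these data known.

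Androgen-induced genes as a list lay near the background. Of 29 members tested, 0 were called higher and 1 lower by limma (5 and 3 at an unadjusted p under 0.05), 13 had a positive and 16 a negative difference, and their median was -0.05. The called member was TMPRSS2, a membrane serine protease, with 1158, 1733 and 2597 in the lowest, median and highest clone, against 2694, 3118 and 3146 in control lines (-0.76 ± 0.22, SE). Its adjusted p was 0.04997, just under the threshold, and it was not called when all 20 arrays of replicate 2 were fitted with line as a block (adjusted p = 0.0954). KLK3, the gene of prostate-specific antigen, had 3287, 3624 and 3963 in clones, against 3674, 1274 and 1890.5 in control lines (0.81 ± 0.24, SE; adjusted p = 0.0531, and 0.034 without clone 1). Control 1 was as high as the clones for KLK3. KLK2, its sister kallikrein, had 2415, 2857 and 3179 in clones, against 2034, 2359 and 2163 in control lines, without overlap (0.33 ± 0.12, SE; adjusted p = 0.0851, and 0.0412 without clone 1). With line as a block the limma adjusted p of KLK2 was 0.57. FKBP5, a co-chaperone that androgen and glucocorticoid induce, had 1997, 2838 and 3159.6 in clones, against 2308, 2539 and 3344 in control lines, a difference of 0.00 ± 0.16 (SE; adjusted p = 0.993). Without clone 1, 4 members were called higher and 4 lower, against 13.3% and 19.5% of all genes in that fit.

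TRPM8, a cold-sensing channel, had 277, 443 and 945 in clones, against 356, 166 and 217 in control lines (0.99 ± 0.38, SE; adjusted p = 0.0942). ST6GALNAC1, a sialyltransferase, had 32.4, 239.9 and 329 in clones, against 174, 39.8 and 112 in control lines (0.94 ± 0.55, SE; adjusted p = 0.238, and 0.0103 without clone 1, its lowest array). These groups overlapped, as did those of ADH1C, an alcohol dehydrogenase (-0.12; adjusted p = 0.733), CYP1A2, a cytochrome P450 (-0.43; adjusted p = 0.231), and OPRK1, an opioid receptor gene (-0.07; adjusted p = 0.873). DDC, the decarboxylase that makes dopamine and serotonin, ranged over 76.0 to 1709 in clones, clone 1 being the highest, against 867, 380.1 and 865 in control lines (-1.17 ± 0.79, SE; adjusted p = 0.302).

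Genes that androgen represses had a higher median, 0.88 over 9 members, with 2 called higher and 0 lower by limma (4 and 0 at an unadjusted p under 0.05). Leaving out control 2 moved the median to 0.25, and in DMSO arrays of replicate 1 it was -1.08. UGT2B17 inactivates androgens by adding glucuronic acid. It had 852, 984 and 1513 in the lowest, median and highest clone, against 988, 60.3 and 185 in controls 1, 2 and 3 (2.14 ± 0.56, SE; adjusted p = 0.0403). The call rests on controls 2 and 3, since control 1 lay among the clones, and without control 2 the difference was 1.28. Its relatives UGT2B15 (1.77; adjusted p = 0.0653) and UGT2B28 (2.34; adjusted p = 0.103) followed the same order of control lines, with 1381, 109 and 307, and with 941, 36.3 and 192. In both, clone 1 was the lowest clone, at 536 and 103. These 3 genes are near-identical in sequence, so probe sets may share signal. PKIB, an inhibitor of protein kinase A, had 94.3, 298 and 658 in clones, against 136, 36.9 and 41.9 in control lines (1.76 ± 0.51, SE; adjusted p = 0.0497).

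Among 19 genes of steroid metabolism, 2 were called higher and 0 lower by limma (6 and 0 at an unadjusted p under 0.05), and the median was 0.35. They were UGT2B17 and HSD17B6, an enzyme that can oxidise androgen metabolites (0.47 ± 0.13, SE; adjusted p = 0.0436). With line as a block HSD17B6 was not called (adjusted p = 0.133). It was dim, with 26.1 to 42.9 in clones, against 26.5, 16.1 and 20.2 in control lines. HSD17B6, NRP1, SPDEF and ACACA fell outside the rule for named genes and were named after their values were seen, to complete short counts.

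Of 12 prostate lineage and ETS factors, 2 were called higher and 2 lower. ETV1, an ETS factor that drives some prostate tumours and is rearranged in LNCaP, had 739, 1515 and 1746 in the lowest, median and highest clone, against 1367, 0.3 and 5.4 in controls 1, 2 and 3. The difference was 4.12 ± 1.05 (SE; adjusted p = 0.0377), and control 1 was within the range of the clones. Without control 1 the difference was 6.19. So ETV1 set 2 control lines apart from the other 8 lines, not clones from control lines. ELF3, an epithelial ETS factor, did separate the groups, with 370.0, 451 and 618 in clones, against 251, 207 and 284 in control lines (0.90 ± 0.16, SE; adjusted p = 0.016). SPDEF, the prostate-derived ETS factor, was lower in clones without overlap, with 299, 394 and 519, against 642, 581 and 802 in control lines (-0.71 ± 0.16, SE; adjusted p = 0.0283). ONECUT2, a homeobox factor, was lower in 6 of 7 clones (-0.86 ± 0.23, SE; adjusted p = 0.0403), and clone 1, at 176, was within the control lines.

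Genes of axon guidance and synaptic adhesion had a median of 0.92 over 17 members, with 1 called higher and 1 lower. NRP1, a co-receptor of semaphorins and VEGF, had 364, 736 and 956 in clones, against 534, 213 and 252 in control lines (1.10 ± 0.30, SE; adjusted p = 0.0443). CADM1, a cell adhesion molecule, had 30.3, 38.0 and 182 in clones, clone 1 being the highest, against 118, 197 and 155 in control lines (-1.33 ± 0.39, SE; adjusted p = 0.0497). EPHA3, an ephrin receptor, had 919 to 1905 in clones 9 to 24 and 0.7 in clone 1, against 260.5, 19.0 and 73.7 in control lines (2.99 ± 1.29, SE; adjusted p = 0.125, and 0.000638 without clone 1). SYT4, a synaptotagmin, had 911, 1981 and 3194 in clones, against 2259, 41.8 and 275 in control lines (adjusted p = 0.0797). Without clone 1, 7 members were called higher and 4 lower, against 13.3% and 19.5% of all genes. The median was 0.51 without control 2, and -0.66 in DMSO arrays of replicate 1.

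Matrix and Wnt genes split. Of 8 mesenchymal genes 1 was called higher, FN1 (fibronectin), with 1967, 2284 and 2719 in clones, against 1857, 799.8 and 568.2 in control lines (1.26 ± 0.27, SE; adjusted p = 0.0277). COL5A2, a fibrillar collagen chain, was called lower (-0.83 ± 0.22, SE; adjusted p = 0.0423), but not with line as a block (adjusted p = 0.0658). Of 11 Wnt genes 1 was higher and 2 were lower. LEF1, a partner of beta-catenin like TCF7L2, had 433, 477 and 789 in clones, against 303, 93.7 and 368 in control lines (1.24 ± 0.34, SE; adjusted p = 0.0437), whereas TCF7L2, given above, and the receptor FZD4 (-0.86 ± 0.20, SE; adjusted p = 0.0317) were lower. Without control 2, LEF1 differed by 0.68 and was not called. The 2 factors of the same family thus differed in opposite directions. Of 5 stromal genes, ACTA2, smooth muscle actin, was lower (-0.74 ± 0.21, SE; adjusted p = 0.046), and of 16 luminal epithelial genes, CLDN7, a tight junction protein, was higher (0.69 ± 0.12, SE; adjusted p = 0.016). ACTA2 was not called with line as a block (adjusted p = 0.0939), and differed by -0.48 without control 2. The other 15 luminal genes were not called.

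Of 22 interferon and antigen presentation genes, 2 were called higher and 1 lower, with a median of -0.03. B2M, the light chain of class I antigen presenting molecules, had 1871, 2914 and 3249.5 in the lowest, median and highest clone, against 2046, 1612 and 1737 in control lines (0.62 ± 0.17, SE; adjusted p = 0.0419). PSMB8, a subunit of the immunoproteasome that cuts peptides for those molecules, had 5.3, 57.9 and 81.7 in clones, against 3.8, 2.6 and 6.0 in control lines (1.55 ± 0.40, SE; adjusted p = 0.0396). In both genes clone 1 was the lowest clone and lay within the control lines, while the other 6 clones were all above them. IRF7, a transcription factor that amplifies interferon, went the other way without overlap, with 29.5, 31.0 and 38.1 in clones, against 56.6, 69.5 and 64.3 in control lines (-0.73 ± 0.10, SE; adjusted p = 0.0114).

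The promoters of B2M and PSMB8 are shown because interferon regulatory factors such as IRF7 bind paired GAAA repeats, and these genes differed in opposite directions. Capitals mark each pair of GAAA repeats set 2 bases of any kind apart, on either strand, in RefSeq windows of GRCh38.p14. For B2M the stretch is chr15:44711328-44711433 on the plus strand, and for PSMB8 chr6:32844042-32844096 on the minus strand:
B2M: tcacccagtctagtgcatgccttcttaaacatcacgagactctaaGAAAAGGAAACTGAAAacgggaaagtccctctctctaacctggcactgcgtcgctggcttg
PSMB8: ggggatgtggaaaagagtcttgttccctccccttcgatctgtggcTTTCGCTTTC
B2M held 2 overlapping matches, at -144 and -138, and PSMB8 held 1 on the opposite strand, at -4. The other PSMB8 window of the table held none, and 1255 of 35116 windows (3.57%) held at least 1. The letters show no binding, and a link between IRF7 and these genes was not tested.

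Of 24 genes of the unfolded protein and amino acid stress response, 3 were called higher and 0 lower by limma (6 and 3 at an unadjusted p under 0.05), and the median was 0.12. All 3 lay without overlap. Over the 24 members, all clones lay above all control lines for 4 and below them for 1, beside 4.84% and 8.28% of all genes. DDIT3, the stress factor CHOP, had 142, 159.5 and 184 in clones, against 98.1, 65.3 and 65.1 in control lines (0.96 ± 0.13, SE; adjusted p = 0.0114). ATF3, a stress-induced factor, had 261, 389.8 and 461 in clones, against 223, 228 and 196 in control lines (0.71 ± 0.16, SE; adjusted p = 0.0283). TRIB3, a pseudokinase and target of that response, had 234, 256 and 286 in clones, against 219.7, 171 and 130.5 in control lines (0.56 ± 0.14, SE; adjusted p = 0.0369). GDF15, a stress cytokine and 1 of 16 p53 targets tested, was the only called member of that list (1.57 ± 0.43, SE; adjusted p = 0.0442). It had 911 to 1164 in clones, against 1141, 234 and 150.5 in control lines, so control 1 again lay among the clones. Its difference was 2.41 without control 1 and 1.01 without control 3.

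Of 18 genes of cholesterol and fatty acid synthesis, 0 were called higher and 3 lower by limma (1 and 5 at an unadjusted p under 0.05). The 3 were without overlap, beside 8.28% of all genes with all clones below all control lines, and the list median was -0.16. LSS, lanosterol synthase, had 307, 377 and 492 in clones, against 632, 803 and 618 in control lines (-0.82 ± 0.15, SE; adjusted p = 0.0174). DHCR7, the last enzyme of cholesterol synthesis, had 156, 183 and 284 in clones, against 360.2, 338 and 384 in control lines (-0.83 ± 0.17, SE; adjusted p = 0.0235). ACACA, acetyl-CoA carboxylase, differed by -0.48 ± 0.13 (SE; adjusted p = 0.0437). SRM, spermidine synthase, was the called gene among 9 of polyamine synthesis, with 789, 821 and 1280.5 in clones, against 1496, 1494 and 1808 in control lines (-0.72 ± 0.19, SE; adjusted p = 0.039). Of those 9, 8 had a negative difference, beside 6590 of 11853 over all genes. Of 24 glycolysis and hypoxia genes, ANKRD37 was higher (0.70), and PFKFB4 (-0.55) and EPAS1, a hypoxia-inducible factor (-0.87), were lower, with a median of -0.02. ZBTB16 was the called gene among 9 that glucocorticoid induces, with 155, 196 and 278 in clones, against 293, 509.9 and 410.3 in control lines (-0.95 ± 0.19, SE; adjusted p = 0.0222).

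CCND1, cyclin D1, which starts the cell cycle with CDK4 and CDK6, was the called gene among 14 of the cyclin D and RB list. It had 869.5, 1060.5 and 1612 in clones, against 1735, 1962 and 1928 in control lines (-0.72 ± 0.19, SE; adjusted p = 0.0431). Of 22 DNA replication and 24 mitosis genes 0 were called by limma, and their medians were 0.18 and 0.14. At an unadjusted p under 0.05, 8 replication genes were higher and 1 lower, and 6 mitosis genes were higher and 1 lower. These stand against 13.9% higher and 20.9% lower over all genes. Without clone 1, 8 genes of each list were called higher and 0 lower, against 13.3% and 19.5% of all genes, with medians of 0.27 and 0.21. Which of the 2 fits describes the clones was not tested.

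**Figure D4:**
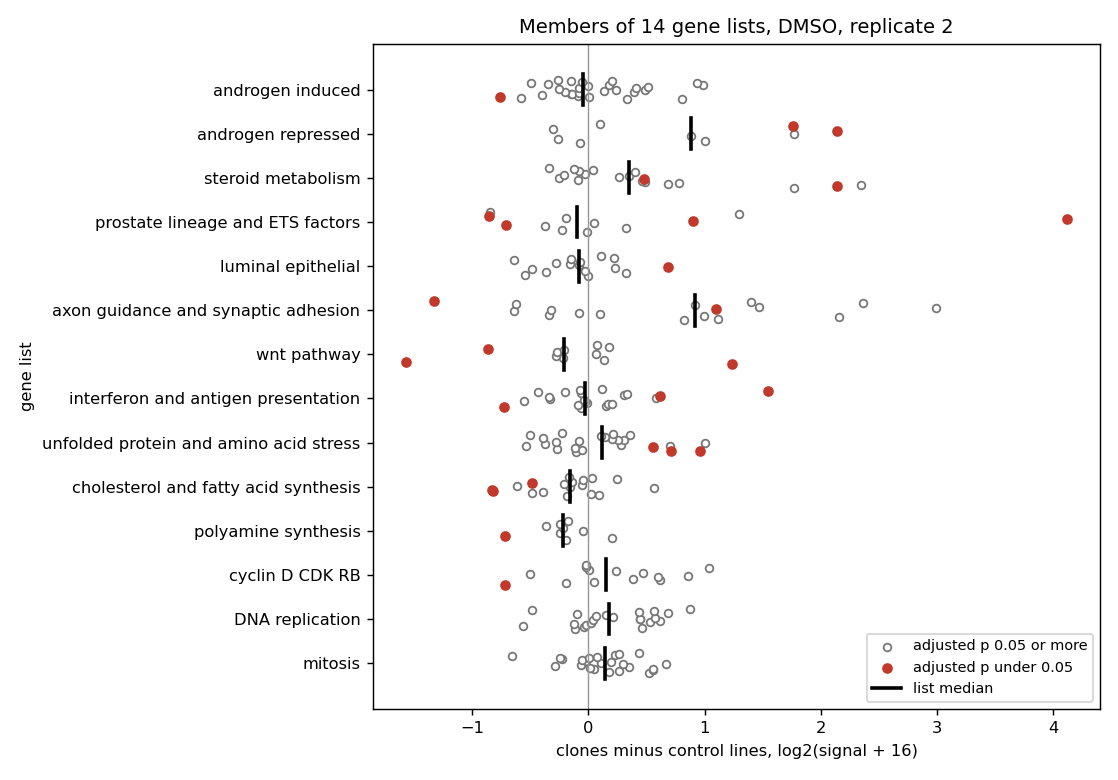
Difference between clones and control lines, on the log2(signal + 16) scale, for each tested member of 14 gene lists; filled points have adjusted p under 0.05, open points do not, and bars are list medians. Medians lie between -0.22 for polyamine synthesis and 0.92 for axon guidance and synaptic adhesion.

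Single lines had marked genes, taken as the 3 with the largest gap between a line and the mean of the other 9, given without a test. The rule does not ask that a gene be marked in that line alone, and several were also high in another line. Clone 1 had almost no EPHA3 signal, given above, and its LPAR3, a receptor for lysophosphatidic acid, was at 8.4 against 168 to 1203 in the other lines. Its RGS2, a regulator of G protein signalling, was at 0.3, whereas clones 14 and 24 had 705 and 789, and that gene was called over all clones (3.62 ± 1.00, SE; adjusted p = 0.0442). Clone 9 was highest in LXN, a carboxypeptidase inhibitor (626, next line 457), and IL32, a cytokine (133, next line 43.5). LXN had 8.1, 346 and 626 in the lowest, median and highest clone, against 12.4, 68.2 and 85.4 in control lines (1.59 ± 0.91, SE; adjusted p = 0.229).

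Clone 10 was highest in PLA2G2A, a secreted phospholipase (1232 against 8.1 to 840.1 in the other lines). It was also highest in PAGE1, a cancer-testis antigen (1629, next line 990), and H2AJ, a histone variant (1799.8, clone 9 at 1464). Clone 15 was highest in RALYL, an RNA-binding protein (228, next line 153), TCIM (314, next line 226) and EPHA3 (1905, clone 14 at 1731). Clone 19 was highest in THBS1, thrombospondin (639, next line 358), LRRTM4, a synaptic membrane protein (202, next line 126), and MAGEA4, a cancer-testis antigen (389.8, next line 243). Clone 24 was highest in PHLDB2, a cortical scaffold protein (363, next line 293). PHLDB2 had 9.9, 146 and 363 in clones, against 17.6, 46.3 and 27.7 in control lines (1.40 ± 0.78, SE; adjusted p = 0.219).

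Control 1 alone had high CBLN2, a synapse organiser, at 927 against 0.4 to 129.8 in the other lines, and had the lowest SDC2, a syndecan (43.9). Control 2 had the lowest ETV1, at 0.3, and also low EFS, an adaptor protein, at 1.6 against 145 to 776, and ADGRG6, an adhesion receptor, at 25.5 against 1198 to 2167. Control 3 had low ETV1, H2AJ (7.9) and MAGEA1 (16.9). H2AJ was low in controls 2 and 3 and in clone 1, at 11.1, 7.9 and 12.8, and lay between 717 and 1799.8 in the other 7 lines, control 1 among them.

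The MDV3100 arrays of replicate 2 come from the same lines, given 10 µM of the drug in place of DMSO alone. There, 854 genes were higher in clones (7.2%) and 1472 lower (12.4%). Of the 1221 genes called in DMSO, 1217 kept their sign under the drug and 918 were also called with the same sign. The latter are 75.2% of the DMSO calls and 39.5% of the MDV3100 calls. With line as a block, arrays of a line in replicate 2 had a consensus correlation of 0.616, so these sets are not independent. The share of all genes with the same sign in both sets is not given here. HGD differed by 2.28 (adjusted p = 0.0118), SLC4A4 by -3.89 (adjusted p = 0.00689) and CWH43 by 2.43 (adjusted p = 0.0204). TMPRSS2 was not called under the drug (-0.03; adjusted p = 0.95), nor were SPDEF (0.02; adjusted p = 0.932) and DDIT3 (0.22; adjusted p = 0.248). Whether the drug changed these differences was not tested here.

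The DMSO arrays of replicate 1 carry the same labels and gave other genes. There, 432 genes were higher in clones (3.64%) and 293 lower (2.47%). Of the 1221 genes called in replicate 2, 439 had the same sign in replicate 1, 229 among those higher and 210 among those lower. For these sets, too, the share of all genes with the same sign is not given. Only 8 were called with the same sign, and 71 were called with the opposite sign. The 8 were BDH2, HGD, MRPL14, PFDN4 and SARNP, higher, and GLIS2, KLHL8 and RNFT2, lower in clones of both sets. Apart from HGD, they are outside the rule for named genes and are named as this overlap. HGD differed by 1.53 in replicate 2 and 1.03 in replicate 1, and KLHL8 by -1.33 and -0.41. The remaining 6 differed by 0.49 to 0.69 in size in replicate 2.

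An interaction term tested the difference between the sets itself. It called 984 genes as more positive in replicate 2 (8.3%) and 1748 as more negative (14.7%), and 889 of the 1221 were among them. ETV1 had the most positive interaction, 8.73, with 4.12 in replicate 2 and -4.61 in replicate 1 (interaction adjusted p = 0.00227). TMEM45B differed by 3.01 in replicate 2 and -2.64 in replicate 1 (interaction adjusted p = 0.00171). FAM110B, at -3.33 and 3.22, had the most negative interaction, -6.56 (adjusted p = 0.00311). For HGD and GPNMB the interaction was not called, at 0.50 (adjusted p = 0.351) and 0.90 (adjusted p = 0.154), and GPNMB differed by 0.69 in replicate 1 (adjusted p = 0.319). CWH43 differed by -0.95 in replicate 1, and its interaction of 3.77 was called (adjusted p = 0.000861).

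**Figure D5:**
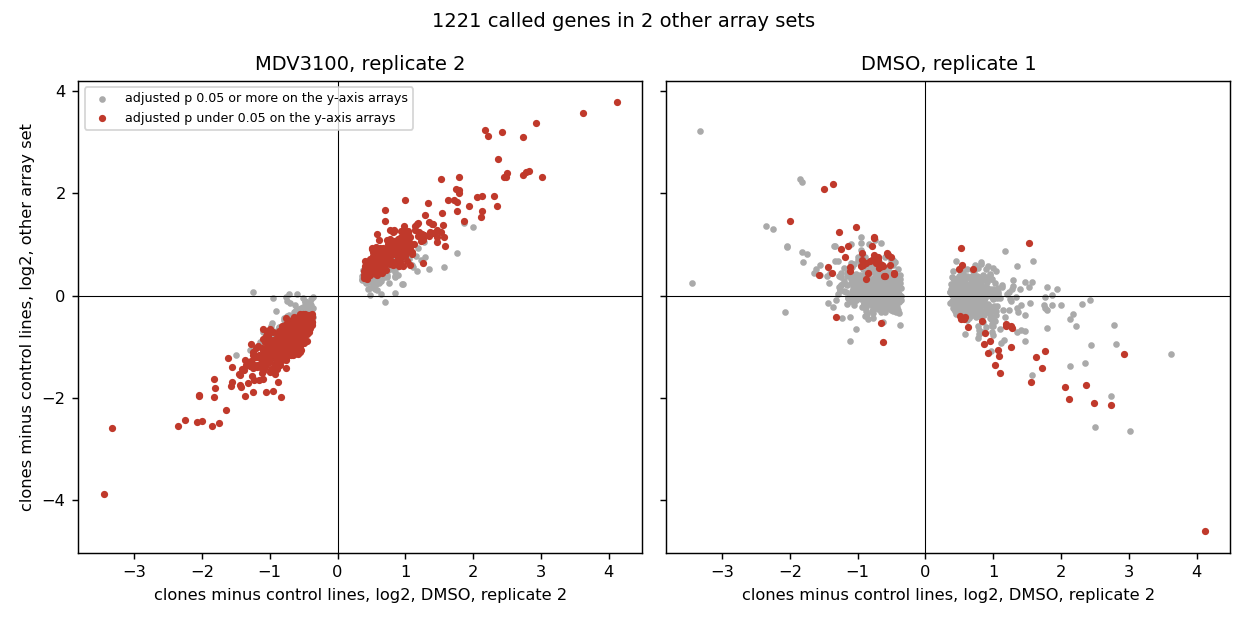
Differences between clones and control lines (log2) for the 1221 genes called in DMSO arrays of replicate 2 (x axis), against MDV3100 arrays of replicate 2 (left) and DMSO arrays of replicate 1 (right); filled dark points are also called on the y axis arrays. Under MDV3100 1217 of 1221 genes kept their sign, and in replicate 1 439 did. Shares of kept signs over all genes are not given.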

How the data were processed

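The authors deposited a linear intensity for each probe set, and the submitters' processing notes name MAS5, with its version not given in the sources used here. All 40 columns of values were matched to samples, and 0 were left unmapped. Biotin-labelled amplified RNA was hybridised, per the labels' protocols. Every array had the same mean after trimming 2% at each end, so no further scaling was made. Depth has no counterpart on arrays, and their number limits the precision.

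Probe sets with 1 gene in the platform annotation were named: 41097 of 54675, while 1801 had several genes and 11777 none. A gene's brightest probe set stood for it if its mean log2(signal + 16) over all arrays reached 4.815 (signal 12.1), which left 11853 genes. Groups came from the titles. Clones and control lines were compared with limma 3.58.1 (R 4.3.3), and p-values were adjusted over all genes by the Benjamini-Hochberg method. Quality values were compared by exact permutation. In simulated data of this size the test called 76 of 100 genes with a log2 difference of 1 and 97 of 100 with 2. The simulated noise was independent for each gene and array, without the likeness between arrays given above. These shares may therefore not hold for the real arrays.

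Named genes are the 15 largest differences of each direction among called genes without overlap, a fixed set, up to 5 members of each list, up to 8 interaction genes of each direction and 3 genes per line. Members and lists were chosen with earlier results of these data known. Some genes of the lists had no named probe set and are not reported here.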

Additional observations from a re-analysis of the deposited data

Results flagged for a closer look

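In 102 groups of 7 clones (98 genes and 4 quality measures), 25 had an array whose gap to its neighbour took an unusually large share of the range. Chance meets this rule in about 1 of 20 independent groups. The 98 genes were chosen from these same arrays and are not independent, so that rate is no yardstick for the 25. In 23 of the 25 the array standing apart was clone 1. EPHA3, LPAR3 and H2AJ were among the genes chosen because clone 1 stood apart in them. Its signal was low for UGT2B15 (536 against 1349.8 to 1719.6 in the other 6 clones), UGT2B28 (102.7), ST6GALNAC1 (32.4), GAS5 (68.5), NFKBIZ (51.7), B2M (1871.4), ANKRD37 (251.8), H2AJ (12.8), PAGE1 (26.6), ERVMER34-1, an envelope gene of a retroviral remnant (19.0), SDC2 (69.7), MAGEA1 (24.7), EPHA3 (0.7 against 919 to 1905), LPAR3 (8.4) and RGS2 (0.3 against 471 to 789). It was high for CEL (76.8), HENMT1 (94.5 against 10.9 to 21.0), GXYLT2 (54.7), APOBEC3F (59.4), SRGAP1 (77.8), TCF7L2 (448.1), ONECUT2 (175.5) and CADM1 (182.2 against 30.3 to 62.4). The other 2 were dim or small gaps: clone 24 for SMOC2 (1.9) and clone 15 for IRF7 (38.1).

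By the interaction term, the difference between clones and control lines in DMSO differed between replicate 2 and replicate 1 for 2732 genes. The largest positive values, replicate 2 minus replicate 1, were 8.731 for ETV1, 7.261 for H2AJ, 5.652 for TMEM45B, 5.645 for RIPOR2, 5.593 for SYT4, 5.516 for PAGE1, 5.432 for ADGRG6 and 5.290 for ERVMER34-1. The largest negative values were -6.557 for FAM110B, -4.129 for PTGFR, a prostaglandin receptor, -4.043 for SMOC2, -3.721 for CEL, -3.685 for SLC4A4, -3.589 for TPBG, a surface glycoprotein of trophoblast, -3.561 for SALL2, a zinc finger factor, and -3.540 for OSMR. Of these 16 genes, 15 had opposite signs in the 2 sets beyond a log2 difference of 1, as ADGRG6 did with 1.91 and -3.52. SLC4A4 had -3.44 in replicate 2 and 0.24 in replicate 1. Adjusted p for the interaction lay between 0.00144 for CEL and 0.0336 for ADGRG6.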

How the results depend on the processing

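No paired analysis was possible because each line has 1 array in this comparison and all 10 carry the same replicate number. In DMSO arrays of replicate 2, the 1221 called genes became 991 with log2(signal + 4), 1218 with log2(signal + 64), 837 without the filter, 1153 after quantile normalization, 1409 with an intensity trend, 1222 with robust eBayes and 1746 in a fit of all 20 replicate 2 arrays with line as a block. Testing each of 22948 named probe sets gave 2243, and leaving out control 2 and clone 1 together 2205. Leaving out single arrays gave 2 to 3877 genes: few without control 2 or 3 or any of clones 14 to 24, many without clone 1. Chosen after seeing the data, leaving out clone 1 gave 4737 calls for MDV3100 arrays of replicate 2, 1453 for DMSO arrays of replicate 1 and 4143 for the interaction. Taken within each line, the interaction called 2149.

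Of 98 named genes, 70 were called. CWH43 and GPNMB kept their call in every alternative; the other 68 lost it without control 2 and without control 3. The cause was not tested. Of the 70, 56 kept their call without control 1, 70 without clone 1 and 66 with line as a block. Direction changed in 13 of 1764 gene values. Leaving out single arrays moved FKBP5 from -0.109 to 0.157, OPRK1 from -0.379 to 0.143, ADH1C from -0.464 to 0.223 and LPAR3 from -0.090 to 1.266, and OPRK1 was 0.117 without control 2 and clone 1 together. None of these 4 was called with all arrays. Of 465 list medians, 441 moved by less than the spread between clones.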
